A study of Mus musculus with 24 samples.

Results

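The genes of the proteasome were followed through radiation-induced B-cell leukemia in mice. A gene was a member when a probe set of the array carried its symbol alone and that symbol was Psm followed by a letter from a to g and a number. Of the 19938 genes named this way on the array, 48 were proteasome genes, read by 54 probe sets. Where a gene had several probe sets the one with the highest mean was used. All 48 were among the 15647 genes tested, and none lay at or below the dim level (the 30th percentile of each array, 5.18 to 5.35) on any array.

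The samples were bone marrow B cells on 24 arrays, 1 per biological replicate, and all mice had been irradiated with 2 Gy. Each biological replicate is read here as 1 mouse, which the labels do not state. The preleukemic material was pro/pre-B cells collected 3 weeks after irradiation from 3 wild-type (WT) mice and from 7 mice with 1 functional allele of Pax5 (Pax5+/-), the transcription factor that commits lymphoid cells to the B lineage. Leukemic samples were labelled leukemic bone marrow B cells and came from 4 WT and 10 Pax5+/- mice. The leukemic samples carry the same label of 3 weeks, so when those mice were sampled is not known here. Neither the age of the mice nor the method of sorting is given in the sources used here, no unirradiated group was analysed here, and the Pax5+/- allele is present in the whole animal as far as the labels say.

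The proteasome is the protease that degrades proteins tagged with ubiquitin. Its barrel, the 20S core, is built of outer alpha rings and inner beta rings, and the beta rings carry the proteolytic sites. The 19S cap recognises and unfolds ubiquitinated substrates with a ring of ATPases and a set of non-ATPase subunits. Other caps can replace it: PA28 alpha and beta (Psme1 and Psme2), PA28 gamma (Psme3) and PA200 (Psme4). In lymphoid cells, and in most cells after interferon, the catalytic subunits Psmb8, Psmb9 and Psmb10 are built into new particles in place of Psmb5, Psmb6 and Psmb7, and the resulting immunoproteasome favours peptides that fit MHC class I molecules.

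The promoters of the 6 members that carry the results below are shown first: the 3 inducible catalytic subunits, of which 1 moved against the other two, the PA28 alpha cap, and the members with the largest fall and the largest rise. Each is the 250 bases before the RefSeq start of the gene on GRCm38.p6, read along the gene's own strand. Psmb8 lies on the plus strand (chr17:34197945-34198194), Psmb9 on the minus strand (chr17:34187331-34187580) and Psmb10 on the minus strand (chr8:105938393-105938642). Psme1 lies on the plus strand (chr14:55578244-55578493), Psme4 on the plus strand (chr11:30771525-30771774) and Psmg1 on the minus strand (chr16:95990961-95991210). Capitals mark matches to any of the 6 motifs that were searched on both strands.
Psmb8: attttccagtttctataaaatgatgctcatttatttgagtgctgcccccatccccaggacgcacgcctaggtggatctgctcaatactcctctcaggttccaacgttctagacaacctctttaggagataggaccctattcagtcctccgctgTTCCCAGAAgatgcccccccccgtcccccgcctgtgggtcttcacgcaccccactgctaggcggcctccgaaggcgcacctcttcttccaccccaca
Psmb9: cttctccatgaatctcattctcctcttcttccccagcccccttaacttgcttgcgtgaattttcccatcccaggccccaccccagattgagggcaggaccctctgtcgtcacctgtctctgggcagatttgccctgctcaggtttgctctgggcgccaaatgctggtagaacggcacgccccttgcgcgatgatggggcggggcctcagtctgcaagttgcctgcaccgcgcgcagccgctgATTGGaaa
Psmb10: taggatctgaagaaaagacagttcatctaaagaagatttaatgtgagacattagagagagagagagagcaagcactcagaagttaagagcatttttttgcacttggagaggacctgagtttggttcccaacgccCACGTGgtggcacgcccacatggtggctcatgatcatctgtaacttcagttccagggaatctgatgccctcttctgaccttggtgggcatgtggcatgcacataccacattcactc
Psme1: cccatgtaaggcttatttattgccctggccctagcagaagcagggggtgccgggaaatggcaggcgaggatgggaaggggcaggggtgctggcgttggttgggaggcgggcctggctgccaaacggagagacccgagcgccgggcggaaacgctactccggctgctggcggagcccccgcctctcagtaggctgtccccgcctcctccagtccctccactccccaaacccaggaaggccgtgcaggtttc
Psme4: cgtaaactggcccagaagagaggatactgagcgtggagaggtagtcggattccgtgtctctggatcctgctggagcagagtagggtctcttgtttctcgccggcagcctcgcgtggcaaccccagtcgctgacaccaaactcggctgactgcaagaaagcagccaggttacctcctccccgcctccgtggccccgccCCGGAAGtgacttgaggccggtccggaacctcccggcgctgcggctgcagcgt
Psmg1: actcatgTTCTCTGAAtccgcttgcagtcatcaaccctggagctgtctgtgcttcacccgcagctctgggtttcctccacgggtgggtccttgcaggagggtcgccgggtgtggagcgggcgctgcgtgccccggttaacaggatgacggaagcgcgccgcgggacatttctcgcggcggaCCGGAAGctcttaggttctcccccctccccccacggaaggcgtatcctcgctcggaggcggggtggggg

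The motifs were GAAANNGAA (the core of an interferon regulatory factor element), TTCNNNGAA (the GAS element), CACGTG (the E-box read by Myc and its relatives), CCAAT, TGACNNNGC (the core of the antioxidant response element) and CCGGAAG (an ETS core). The GAS and E-box patterns read the same on both strands, so their matches were found at the same place on both. The capitals in Psmb8 are a GAS match 97 to 89 bases before the start. In Psmb9 they are a CCAAT match on the opposite strand 8 to 4 bases before the start, in Psmb10 an E-box 116 to 111 bases before it, and in Psme4 an ETS core 53 to 47 bases before it. Psmg1 held a GAS match and an ETS core 69 to 63 bases before its start, and no motif matched in the window of Psme1. RefSeq windows were matched for 40 of the 48 members, as 43 windows. Those of Psma8, Psmb1, Psmb2, Psmb7, Psmc3, Psmd3, Psmd7 and Psmg2 were not matched.

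The ETS core was found in 13 of 43 member windows (30.2%), against 6.91% of the 32851 windows of all genes. The other motifs were found at 6.98% against 7.13% (interferon regulatory factor core), 4.65% against 7.02% (GAS), 9.3% against 6.02% (E-box), 32.6% against 33.8% (CCAAT) and 11.6% against 10.2% (antioxidant response core). The member windows had a median GC content of 57.6%, against 52.4% for all windows, and the part of base composition in the ETS share was not tested. A match describes letters in a window and not a bound site. Psmb9 and the peptide transporter gene Tap1 start 226 bases apart in opposite directions, so their windows overlap, and the gene order on chromosome 17 is Psmb9, Tap1, Psmb8, Tap2.

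Arrays and cell content set the frame for every stage comparison. The mean log2 signal of 12 B-lineage markers ran from 10.65 to 11.02 in preleukemic Pax5+/- arrays and from 8.87 to 10.07 in leukemic ones, and none of the 12 was dim on all arrays of any group. Granulocyte markers (16 genes) ran from 6.11 to 10.85 in leukemic Pax5+/- arrays against 6.12 to 6.81 before leukemia, monocyte and macrophage markers (14 genes) from 6.79 to 9.01 against 5.94 to 6.13, platelet markers (7 genes) from 7.80 to 10.65 against 6.57 to 6.79, stromal markers (11 genes) from 7.30 to 8.39 against 6.63 to 6.77, and cell-cycle genes (17 genes) from 9.34 to 10.26 against 8.58 to 9.18. Dendritic-cell markers (9 genes) ran from 7.08 to 8.95 against 6.55 to 7.05, T-cell markers (10 genes) from 5.80 to 7.12 against 5.72 to 5.81, and NK-cell markers (9 genes) from 5.84 to 7.08 against 5.63 to 7.15. In WT mice leukemic granulocyte means ran from 8.11 to 10.18, monocyte means from 7.58 to 8.29 and cell-cycle means from 10.03 to 10.24. B-lineage means there ran from 8.23 to 9.34 against 10.74 to 11.16 before leukemia. Platelet means ran from 9.19 to 10.09 against 6.67 to 6.79, and stromal means from 7.89 to 8.37 against 6.69 to 6.78. Erythroid markers (7 genes) ran from 6.83 to 9.44 against 6.94 to 8.52 in WT mice, and from 6.40 to 6.81 against 6.77 to 7.39 in Pax5+/- mice. Preleukemic WT array 1 stood apart from arrays 2 and 3, with granulocyte means of 10.63, 6.48 and 6.53 and cell-cycle means of 10.03, 8.24 and 8.43. Y-linked genes were high on all preleukemic WT arrays (8.34 to 8.71) and low on all leukemic WT arrays (4.73 to 4.95), so there the sex of the mice and the stage cannot be told apart. The part of these cell types and of proliferation in the member results was not tested. In such bulk samples a change in the mix of cells and a change within a cell cannot be told apart.

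Pax5 itself ran from 11.47 to 12.16 in preleukemic WT and from 11.34 to 11.59 in preleukemic Pax5+/- arrays, overlapping, with a difference of -0.45 ± 0.76 (SE; limma adjusted p = 0.96). A probe set summed over the transcript need not read the targeted part of the allele. With leukemia Pax5 fell in both genotypes. It differed by -2.90 in Pax5+/- mice (SE 0.54, adjusted p = 9.4e-05), where leukemic and preleukemic arrays overlapped. In WT mice it differed by -2.43 (SE 0.84, adjusted p = 0.0256), without overlap. Myc, a driver of growth genes, rose by 3.58 ± 0.33 in Pax5+/- and 2.88 ± 0.51 in WT mice (adjusted p = 7.23e-09 and 0.00015).

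More proteasome genes rose than fell with leukemia in both genotypes, by a margin that in Pax5+/- mice shrank to 15 against 12 under 1 of the scalings tried. The counts over all genes under that scaling are given below. In Pax5+/- mice 29 of 48 members rose and 6 fell (limma, Benjamini-Hochberg adjusted p under 0.05 over the 15647 genes), where 27.8% of all genes tested rose and 35.1% fell. The median member differed by 0.28 between leukemic and preleukemic samples on the log2 scale, against -0.05 over all genes. In WT mice 29 members rose and 1 fell, where 18.7% of all genes rose and 20.4% fell, with medians of 0.45 and -0.05. The values of all arrays did not overlap between stages for 10 higher and 2 lower members in Pax5+/- mice, where 11.7% and 10.5% of all genes had such groups, and for 24 higher and 1 lower in WT mice, where 18.9% and 20.4% did.

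The rising members were mostly shared: 24 rose in both genotypes, 5 rose only past the threshold in WT and 5 only in Pax5+/- mice, and 8 passed in neither. Psme4 alone fell in both, and 5 further members fell past the threshold in Pax5+/- mice but not in WT mice. The counts moved with the scaling of the arrays. With arrays centred on the median of the tested genes, 15 members rose and 12 fell in Pax5+/- mice and 18 rose and 2 fell in WT mice. This alternative was added after the data were seen. Of all 15647 genes tested, 2827 rose and 8930 fell under it in Pax5+/- mice, and 2214 rose and 5741 fell in WT mice. With centring on the median of all probe sets the member counts were 33 and 2 in Pax5+/- and 33 and 1 in WT mice. Over all genes they were 5066 and 3502 in Pax5+/- and 3379 and 2177 in WT mice. The first centring moved all genes by -0.20 and -0.12 and left a member median of 0.08 against -0.25 over all genes in Pax5+/- mice, and 0.32 against -0.18 in WT mice. This shift turned 9 small positive member differences in Pax5+/- mice and 4 in WT mice negative. Leaving out preleukemic WT array 2 lowered the number of rising members in WT mice from 29 to 19, and leaving out the array that stood apart gave 25.

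**Figure D1:**
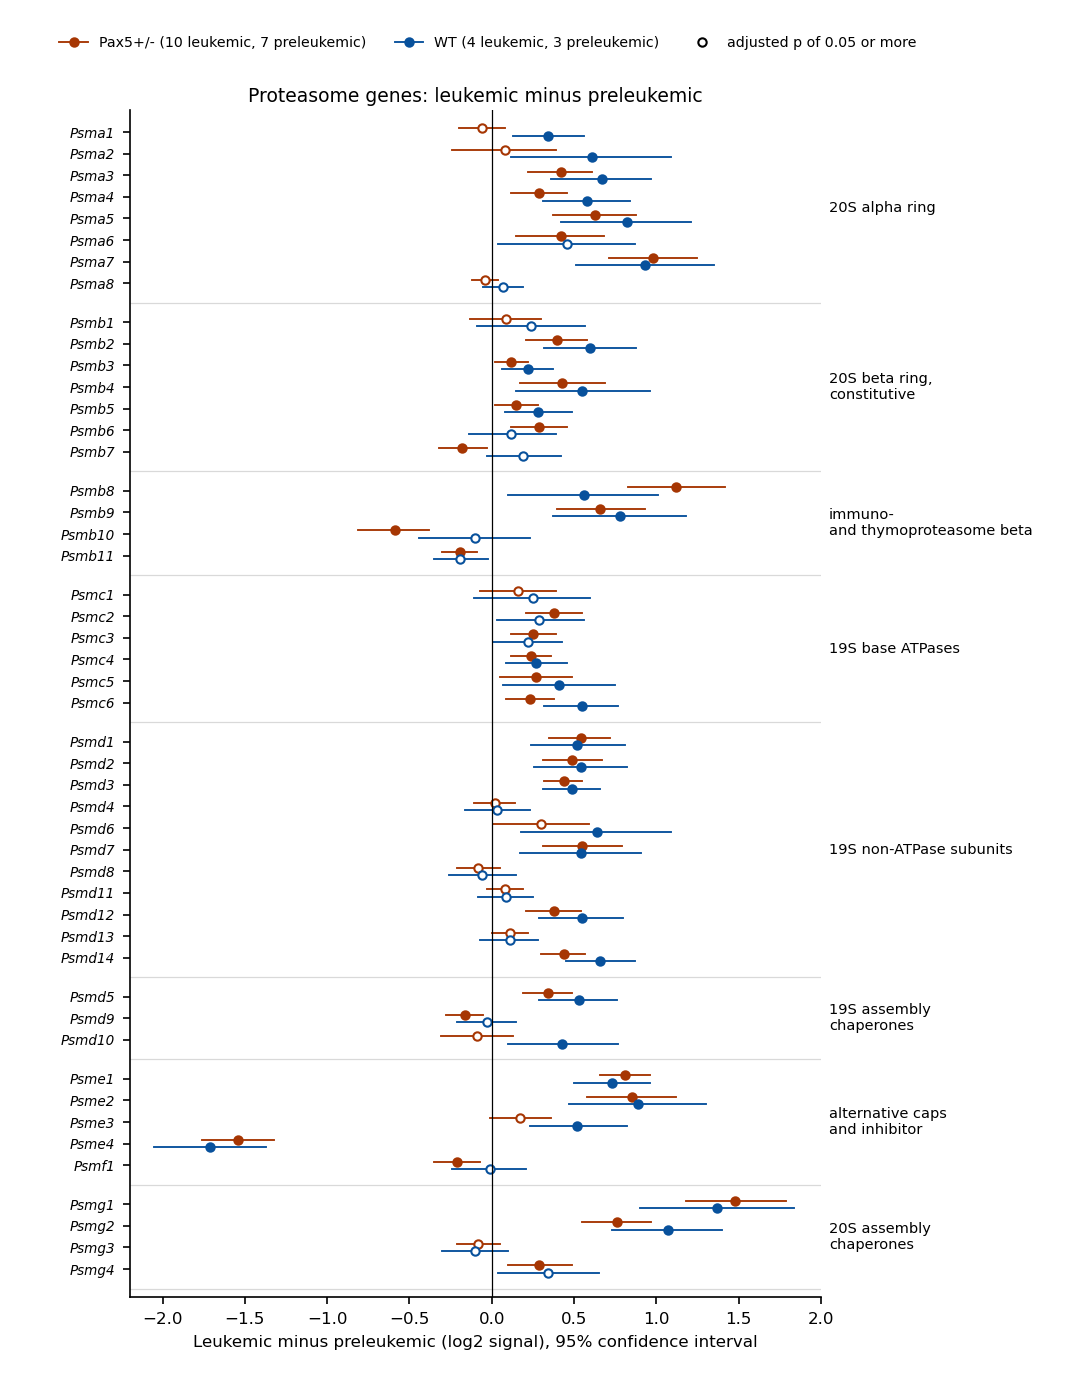
Difference in log2 signal between leukemic and preleukemic samples for all 48 proteasome genes, ordered by role, with 95% confidence intervals from limma; orange is Pax5+/- and blue is WT, and open circles did not pass an adjusted p of 0.05. Most points lie right of 0, Psme4 lies at -1.54 and -1.71, and centring arrays on the tested genes turned 9 small positive Pax5+/- values and 4 WT values negative.

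Among the alpha subunits, which form the outer rings and the gate of the core, 5 of 8 rose in Pax5+/- and 6 of 8 in WT mice, with median differences of 0.35 and 0.59. For this and the following groups of members the shares over all genes are those given above. They were 27.8% higher and 35.1% lower in Pax5+/- mice, and 18.7% higher and 20.4% lower in WT mice. Psma7 led the alpha subunits. Its signal in preleukemic Pax5+/- arrays had a lowest, median and highest value of 8.17, 8.20 and 8.69, and in leukemic ones 8.89, 9.26 and 9.79, so the groups did not overlap. The rise was 0.98 ± 0.13 (SE), or 1.97-fold (adjusted p = 1.52e-06). In WT mice the preleukemic arrays read 8.98, 8.15 and 8.19 and the leukemic arrays 8.98, 9.46, 9.58 and 9.44, a rise of 0.93 ± 0.20 (adjusted p = 0.00108). The high preleukemic value belonged to the array with high granulocyte and cell-cycle signal, and without it the rise was 1.19.

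Psma5 rose by 0.63 and 0.82, and the 3 probe sets of Psma3 gave rises of 0.40 to 0.44 in Pax5+/- and 0.62 to 0.67 in WT mice. Psma1 and Psma2 rose in WT mice (0.34 and 0.61) and did not pass in Pax5+/- mice (-0.06 and 0.08). The WT call of Psma2 was lost in 15 of 37 settings, among them leaving out any of 6 of the 7 WT arrays. Psma8, the germ-cell alpha subunit, was close to the dim level in every group (5.62 to 5.90) and differed by -0.04 ± 0.04 in Pax5+/- mice (adjusted p = 0.388).

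Of the 7 constitutive beta subunits, 5 rose and 1 fell in Pax5+/- mice and 4 rose in WT mice, with median differences of 0.15 and 0.24. Psmb2 and Psmb4, structural subunits of the inner ring, rose by 0.40 and 0.43 in Pax5+/- mice and by 0.60 and 0.55 in WT mice. Psmb2 kept its WT call in every setting. That of Psmb4 was lost in 9 of 37, among them leaving out any preleukemic WT array or leukemic WT array 2, 3 or 4. The 3 constitutive catalytic subunits differed among themselves.

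Psmb5, which carries the chymotrypsin-like site, had a lowest, median and highest value of 11.20, 11.44 and 11.70 in preleukemic and 11.44, 11.60 and 11.69 in leukemic Pax5+/- arrays, so the leukemic arrays lay within the preleukemic range. Its difference of 0.15 ± 0.06 just passed (adjusted p = 0.0491), lost the call in 22 of 37 alternative settings and turned to -0.05 with arrays centred on the tested genes. In WT mice preleukemic arrays read 11.22, 11.31 and 11.58 and leukemic arrays 11.68, 11.71, 11.56 and 11.67 (0.28 ± 0.10, adjusted p = 0.0284). The WT call was lost in 12 of 37 settings, among them repeated quantile normalization and leaving out preleukemic WT array 1 or 2.

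Psmb6, with the caspase-like site, rose by 0.29 ± 0.08 in Pax5+/- mice (adjusted p = 0.00403) and differed by 0.12 ± 0.13 in WT mice (adjusted p = 0.453). Psmb7, with the trypsin-like site, fell by 0.18 in Pax5+/- mice (SE 0.07, adjusted p = 0.0313), from a median of 10.36 to 10.14 with overlapping groups, and differed by 0.19 ± 0.11 in WT mice (adjusted p = 0.165). Without any 1 of 6 Pax5+/- arrays, or with arrays centred on all probe sets, the fall of Psmb7 no longer passed.

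The 3 inducible catalytic subunits did not move as a unit. Psmb8, which replaces Psmb5, had a lowest, median and highest value of 8.67, 8.97 and 9.47 in preleukemic Pax5+/- arrays and 9.71, 10.11 and 10.47 in leukemic ones. Every leukemic array lay above every preleukemic array, and the rise was 1.12 ± 0.14, or 2.18-fold (adjusted p = 7.25e-07). In WT mice preleukemic arrays read 9.56, 8.71 and 9.40 and leukemic arrays 9.76, 9.98, 10.08 and 9.31. These groups overlapped, and the rise of 0.56 ± 0.22 (adjusted p = 0.0491) lost the call in 22 of 37 settings and shrank to 0.30 without preleukemic WT array 2. Over the settings the rise ran from 0.30 to 0.72. The call was not lost without preleukemic WT array 1, the array that stood apart. The mean of 16 interferon-stimulated genes ran from 6.30 to 7.92 in leukemic and 6.29 to 6.67 in preleukemic Pax5+/- arrays. The lowest leukemic mean, on array 2, went with a Psmb8 value of 9.86. That value lay above all preleukemic Pax5+/- arrays and below the leukemic median of 10.11. The part of interferon signals in the rise was not tested.

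Psmb9, which replaces Psmb6, had 9.24, 9.49 and 9.74 in preleukemic and 9.88, 10.02 and 10.81 in leukemic Pax5+/- arrays as lowest, median and highest value. The groups did not overlap and the rise was 0.66 ± 0.13, or 1.58-fold (adjusted p = 0.000115). In WT mice preleukemic arrays read 9.44, 8.92 and 9.14 and leukemic arrays 10.02, 10.29, 9.83 and 9.62, again without overlap (0.78 ± 0.20, adjusted p = 0.00339). The 2 highest leukemic Pax5+/- values, 10.81 and 10.52, were on arrays 1 and 4, and these arrays also had the 2 highest T-cell means (7.12 and 6.89, the others at most 6.26). Array 1 had the highest monocyte (9.01), NK-cell (7.08), dendritic-cell (8.95) and interferon-stimulated (7.92) means of its group as well. Leukemic WT array 2, the highest for Psmb9, stood apart with an NK-cell mean of 9.35 (the others 5.82 to 6.27) and an interferon-stimulated mean of 8.91 (the others 6.76 to 7.22), and the part of these signals was not tested. Without it the WT rise of Psmb9 was 0.66 (adjusted p = 0.0151).

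Psmb10, which replaces Psmb7, went the other way in Pax5+/- mice. Its lowest, median and highest values were 10.04, 10.32 and 10.51 before leukemia and 9.45, 9.71 and 10.14 in leukemia, overlapping at array 1. It fell by 0.59 on the log2 scale (SE 0.10, 1.51-fold, adjusted p = 5.04e-05), and kept the call in all 37 settings. In WT mice the preleukemic arrays read 9.71, 10.06 and 10.09 and the leukemic arrays 9.96, 10.26, 9.48 and 9.69, which overlapped (-0.10 ± 0.16, adjusted p = 0.636), with the highest value on leukemic WT array 2. Without that array the difference was -0.24 (adjusted p = 0.237). Psmb11, the beta subunit of the thymic epithelium, had a low signal, between 5.68 and 6.25 in all groups. Its group means (5.82 to 6.01) lay below the lowest array median, 6.104. Psmb11 fell by 0.19 in Pax5+/- mice (adjusted p = 0.00288) and lost that call when arrays were centred on all probe sets or quantile-normalised again.

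**Figure D2:**
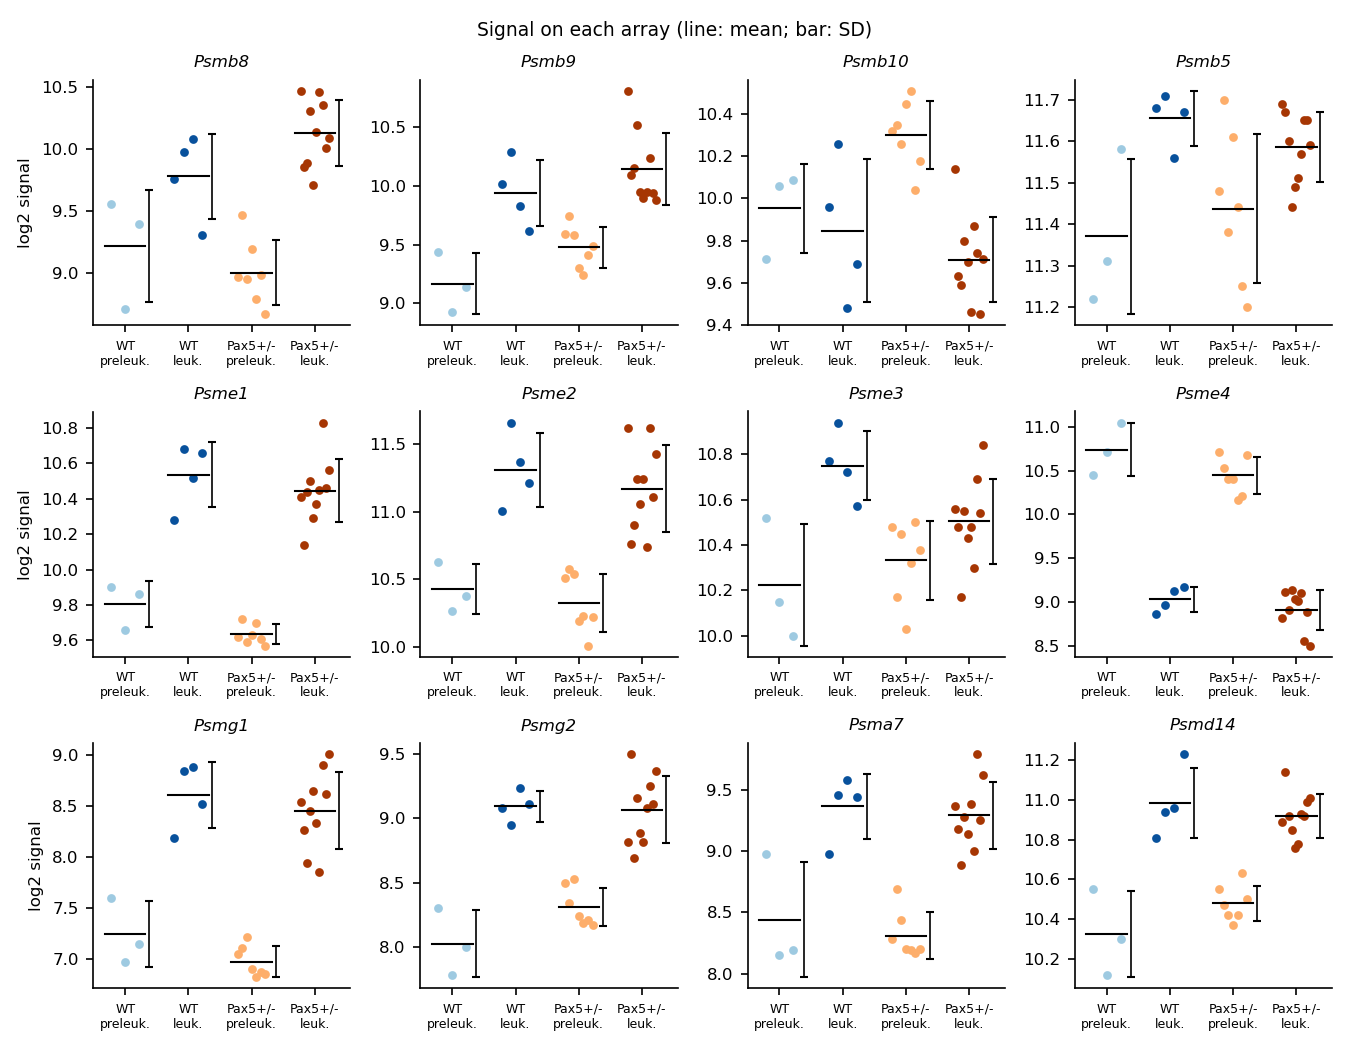
Log2 signal on each array for 12 proteasome genes in the 4 groups (points are arrays, lines are means, bars are SDs; each panel has its own axis, which does not start at 0). Leukemic Pax5+/- arrays lie above all preleukemic ones for Psmb8, Psmb9, Psme1, Psme2, Psmg1, Psmg2, Psma7 and Psmd14 and below all of them for Psme4, while Psmb5, Psmb10 and Psme3 overlap.

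Because each inducible subunit takes the place of 1 constitutive subunit, the difference between the partners was also taken within each array. Its absolute value has no meaning across probe sets and only its change between groups is read. Psmb8 minus Psmb5 was -2.43 ± 0.15 (SD, n = 7) in preleukemic and -1.46 ± 0.27 (SD, n = 10) in leukemic Pax5+/- arrays, with no overlap. The change of 0.97 had an exact permutation p of 0.000103 (two-sided, the smallest this design can give; adjusted 0.000617 over 12 tests). Psmb9 minus Psmb6 changed by 0.37, from -0.53 ± 0.04 (SD, n = 7) to -0.15 ± 0.28 (SD, n = 10), with the same exact p and adjusted p. Here the groups nearly touched: preleukemic arrays ran from -0.57 to -0.46 and leukemic arrays from -0.44 to 0.35. Leukemic arrays 6, 9 and 10 read -0.39, -0.43 and -0.44, and the highest values, 0.35 and 0.29, were on arrays 1 and 4.

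Psmb10 minus Psmb7 changed by -0.41 (exact permutation p = 0.00278, adjusted 0.0111), with preleukemic arrays from -0.21 to 0.34 and leukemic arrays from -0.70 to -0.04. The difference between inducible and constitutive partner rose for 2 pairs and fell for the third in Pax5+/- mice. With group medians in place of means the third change was -0.38 and its adjusted p was 0.0884.

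In WT mice, where 3 against 4 arrays cannot reach an exact p below 0.0571, the changes were 0.27 for Psmb8 minus Psmb5 (exact p = 0.514), 0.65 for Psmb9 minus Psmb6 (exact p = 0.0571, no overlap) and -0.29 for Psmb10 minus Psmb7 (exact p = 0.286). Without preleukemic WT array 1 they were 0.51, 0.78 and -0.51. Between genotypes, Psmb9 minus Psmb6 was higher in preleukemic Pax5+/- than WT arrays by 0.43 with no overlap, at the smallest exact permutation p this design can give (0.0167) and an adjusted p of 0.05, which is not under the threshold. Psmb8 minus Psmb5 differed by 0.42 between leukemic genotypes (exact p = 0.05, adjusted 0.114).

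**Figure D3:**
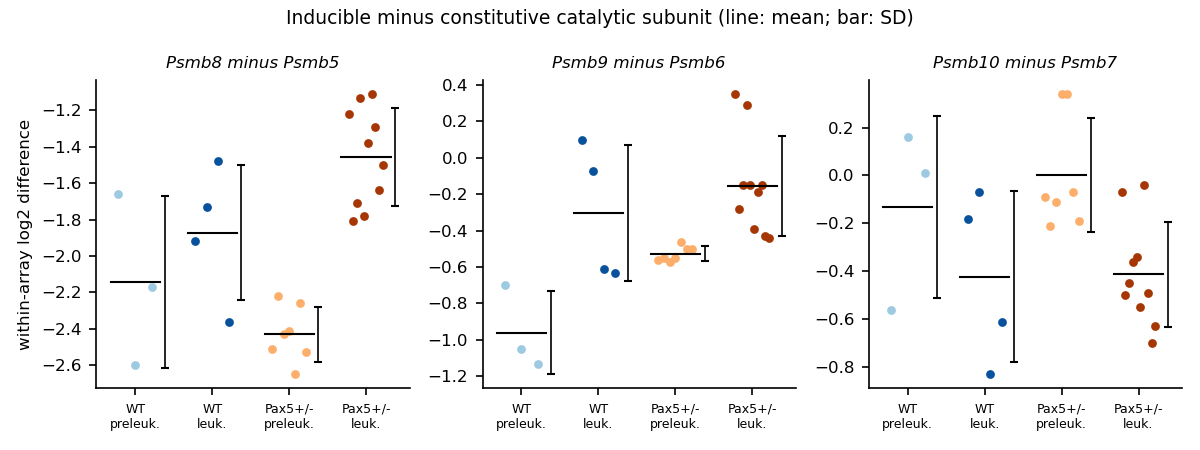
Within-array log2 difference between each inducible catalytic subunit and the constitutive subunit it replaces, for every array in the 4 groups (lines are means, bars are SDs). In Pax5+/- mice the pairs changed by 0.97, 0.37 and -0.41 with leukemia.

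Irf1 and Nlrc5, transcription regulators of interferon-responsive and MHC class I genes, were set against the 3 inducible subunits within the 10 leukemic Pax5+/- arrays. With leukemia Irf1 fell by 0.39 in Pax5+/- mice (SE 0.15, limma adjusted p = 0.0241), where Psmb10 also fell while Psmb8 and Psmb9 rose. Among leukemic arrays Irf1 went with Psmb8 (Pearson r = 0.71, permutation p = 0.0128, adjusted 0.0256 over 6 relations; Spearman rho = 0.77, permutation p = 0.0126, adjusted 0.0379). For Psmb9 r was 0.82 (permutation p = 0.00612, adjusted 0.0184) and rho 0.64 (permutation p = 0.0533, adjusted 0.107). For Psmb10 r was 0.83 (permutation p = 0.00547, adjusted 0.0184) and rho 0.77 (permutation p = 0.0121, adjusted 0.0379). Without the 2 arrays farthest from the median of Irf1, r was 0.60, 0.74 and 0.70.

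Whether the relation to Irf1 passed depended on single arrays. Without array 1, which had the highest T-cell, NK-cell, monocyte, dendritic-cell and interferon-stimulated means, r was 0.65, 0.53 and 0.58 for Psmb8, Psmb9 and Psmb10 with adjusted permutation p of 0.285 each. Without array 4, which had the next highest T-cell mean, the adjusted p was 0.0617, 0.0983 and 0.0617, and without array 2 that of Psmb8 was 0.0869. Nlrc5 gave r of -0.14, 0.28 and 0.20 with Psmb8, Psmb9 and Psmb10 (adjusted permutation p of 0.704, 0.635 and 0.69; rho -0.05, 0.33 and 0.04; r of 0.40, 0.60 and 0.62 without the 2 arrays farthest from its median). No batch is given in the labels, so no value within batches could be computed.

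The ATPases of the 19S base, which unfold substrates and thread them into the core, rose by small amounts. Of 6, 5 rose in Pax5+/- and 3 in WT mice, none fell, and differences ran from 0.16 to 0.38 and from 0.22 to 0.55. Psmc2 rose by 0.38 ± 0.08 in Pax5+/- mice (adjusted p = 0.000444), and Psmc6 by 0.55 ± 0.11 in WT mice (adjusted p = 0.000441). Psmc1 passed in neither comparison (0.16 and 0.25).

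Of the 11 non-ATPase subunits of the 19S cap, 6 rose in Pax5+/- and 7 in WT mice and none fell, with median differences of 0.38 and 0.52. Psmd14, the deubiquitinase that removes ubiquitin chains from committed substrates, had a lowest, median and highest value of 10.37, 10.47 and 10.63 before leukemia and 10.76, 10.92 and 11.14 in leukemic Pax5+/- arrays. No array overlapped (0.44 ± 0.07, 1.36-fold, adjusted p = 6.74e-06). In WT mice preleukemic arrays read 10.55, 10.12 and 10.30 and leukemic arrays 10.81, 10.94, 10.96 and 11.23, also without overlap (0.66 ± 0.10, adjusted p = 3.16e-05).

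The scaffold subunits Psmd1 and Psmd2 rose by 0.54 and 0.49 in Pax5+/- and 0.52 and 0.54 in WT mice, and Psmd3, whose leukemic and preleukemic arrays did not overlap in either genotype, by 0.44 and 0.49. The ubiquitin receptor Psmd4 was among the members with the smallest differences, at 0.02 ± 0.06 and 0.03 ± 0.09 (adjusted p = 0.804 and 0.813). With arrays centred on the tested genes it was -0.18 in Pax5+/- mice, where it passed as lower, and -0.09 in WT mice. Psmd8, Psmd11 and Psmd13 also passed in neither genotype.

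The 3 chaperones that assemble the 19S base split. Psmd5 rose in both genotypes (0.34 and 0.53). Psmd9 fell by 0.16 in Pax5+/- mice (adjusted p = 0.0155) and differed by -0.03 in WT mice, and the fall did not pass with arrays centred on all probe sets. Psmd10, also known as gankyrin, rose in WT mice (0.43 ± 0.16, adjusted p = 0.0389) and differed by -0.09 ± 0.11 in Pax5+/- mice (adjusted p = 0.469). Its WT call was lost in 9 of 37 settings, among them leaving out any of 6 of the 7 WT arrays.

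The alternative caps held the largest fall. Psme4, which encodes PA200, a cap tied to histone turnover, read 10.45, 10.72 and 11.05 in preleukemic and 8.86, 8.97, 9.12 and 9.17 in leukemic WT arrays. In Pax5+/- mice its lowest, median and highest values were 10.17, 10.41 and 10.72 before leukemia and 8.50, 8.96 and 9.14 in leukemia. Leukemic and preleukemic arrays were apart by more than 1 log2 unit in each genotype. The fall was 2.91-fold in Pax5+/- mice (-1.54 ± 0.11, adjusted p = 7.19e-11) and 3.27-fold in WT mice (-1.71 ± 0.16, adjusted p = 8.24e-08), and it passed in all 37 settings of each comparison. Leukemic Pax5+/- arrays 2 and 7 had granulocyte means (6.38 and 6.11) that did not exceed the preleukemic range. They read 9.11 and 9.10 for Psme4, near the highest leukemic value of 9.14. Their monocyte means (7.25 and 7.05) and platelet means (8.46 and 10.65) were above the preleukemic range. The part of cell content in the fall was not tested.

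PA28 alpha and beta rose in both genotypes. Psme1 had 9.57, 9.62 and 9.72 as lowest, median and highest value in preleukemic and 10.14, 10.44 and 10.83 in leukemic Pax5+/- arrays (0.81 ± 0.07, 1.76-fold, adjusted p = 4.65e-09). In WT mice it went from 9.90, 9.66 and 9.86 to 10.28, 10.68, 10.52 and 10.66 (0.73 ± 0.11, adjusted p = 3.36e-05). Neither genotype's groups overlapped. Its partner Psme2 rose by 0.85 ± 0.13 in Pax5+/- mice, from a median of 10.23 to 11.17 (adjusted p = 8.95e-06), and by 0.89 ± 0.20 in WT mice (adjusted p = 0.00144), without overlap in either. Psme1 and Psme2 are neighbours on chromosome 14 with 1 gene, Emc9, between them.

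Psme3, the nuclear PA28 gamma, went from 10.52, 10.15 and 10.00 to 10.77, 10.94, 10.72 and 10.57 in WT mice (0.52 ± 0.14, adjusted p = 0.00546), and this rise did not pass without preleukemic WT array 3. In Pax5+/- mice the groups overlapped and the difference was 0.17 ± 0.09 (adjusted p = 0.0983). Psmf1, the inhibitor PI31, fell by 0.21 in Pax5+/- mice (SE 0.07, adjusted p = 0.0116), from a median of 9.36 to 9.07 with overlap, and differed by -0.01 ± 0.11 in WT mice (adjusted p = 0.928). The fall of Psmf1 did not pass with arrays centred on all probe sets.

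The chaperones that assemble the 20S core held the largest rise. Psmg1, which pairs with Psmg2 to start the alpha ring, read 7.60, 6.97 and 7.15 in preleukemic and 8.19, 8.84, 8.88 and 8.52 in leukemic WT arrays. In Pax5+/- mice its lowest, median and highest values were 6.82, 6.90 and 7.21 before and 7.85, 8.50 and 9.01 in leukemia. The groups were fully apart in both genotypes. The rise was 1.48 ± 0.15 (2.80-fold, adjusted p = 1.87e-08) in Pax5+/- and 1.37 ± 0.23 (2.58-fold, adjusted p = 7.3e-05) in WT mice.

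Psmg2 rose by 0.76 ± 0.10 in Pax5+/- mice, from a median of 8.24 to 9.10 (adjusted p = 1.91e-06). In WT mice it went from 8.30, 7.78 and 8.00 to 9.08, 8.95, 9.24 and 9.11 (1.07 ± 0.16, 2.09-fold, adjusted p = 2.45e-05). Of the other pair, Psmg4 rose in Pax5+/- mice (0.29 ± 0.09, adjusted p = 0.0107) and did not pass in WT mice (0.34 ± 0.15, adjusted p = 0.0652), and Psmg3 passed in neither (-0.08 and -0.10). On preleukemic WT array 1, whose cell-cycle mean was as high as in leukemia, Psmg1 (7.60) and Psmg2 (8.30) were the highest of the 3 preleukemic WT arrays and below all 4 leukemic ones. That array also had a granulocyte mean of 10.63, and the part of proliferation and of cell content was not tested. Without that array the WT rises were 1.54 and 1.20.

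**Figure D4:**
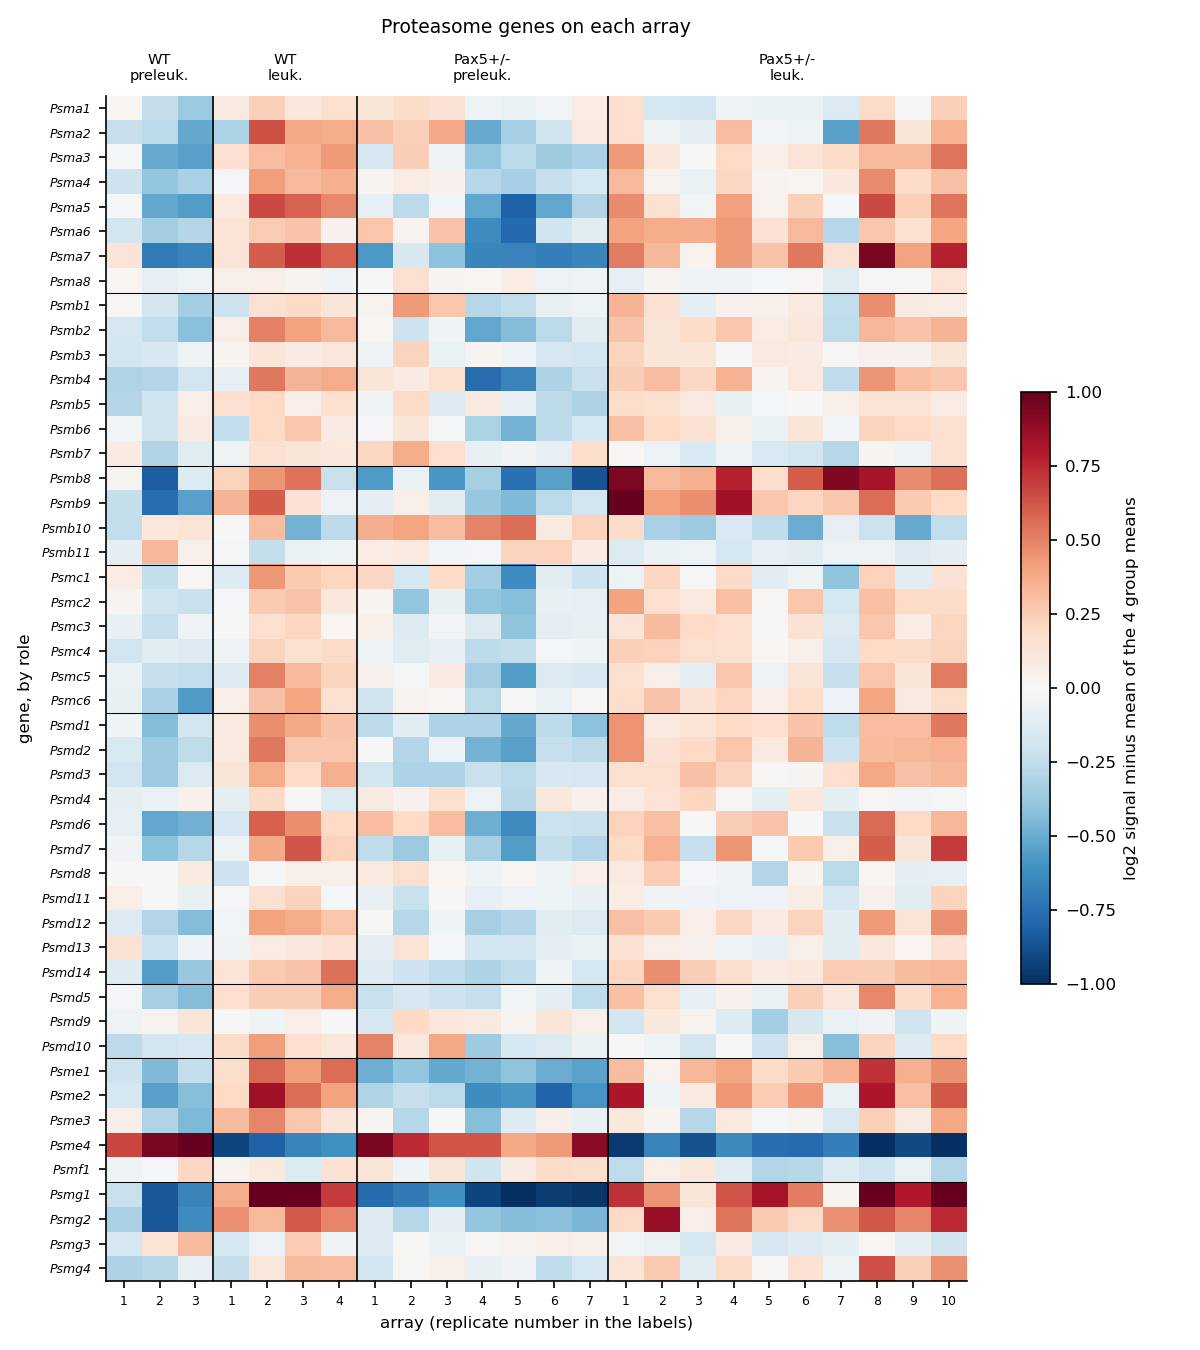
Log2 signal of the 48 proteasome genes on the 24 arrays, each gene shown as the difference from the mean of its 4 group means (red higher, blue lower; colours end at 1 in either direction; rows by role, columns by group and replicate number). Psme4 is blue on all leukemic arrays, Psmg1 and Psma7 are blue on most preleukemic and red on nearly all leukemic arrays, and leukemic Pax5+/- array 7 is lower than the rest of its group for Psma6, Psmb2, Psmc4 and Psmd2.

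The stage differences of the genotypes were not shown to differ for any member. Of the genes tested 0.185% had a stage difference that differed between genotypes, and none of the 48 members did by limma (7 had an unadjusted p under 0.05, and the smallest adjusted p was 0.283). The estimates (Pax5+/- minus WT) ran from -0.53 to 0.57 with a median SE of 0.16. For Psmb8 the difference of differences was 0.57 with a 95% interval from 0.02 to 1.11 (adjusted p = 0.565), for Psmb10 -0.49 from -0.89 to -0.09 (adjusted p = 0.471), and for Psma1 -0.40 from -0.66 to -0.15 (adjusted p = 0.283). Psmd13 was close to 0 (0.00, from -0.21 to 0.21). These intervals allow differences as large as many of the stage changes.

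Nor did a member pass between genotypes at 1 stage. Before leukemia 0.786% of all genes differed between Pax5+/- and WT mice, and 0 of 48 members did by limma (4 at an unadjusted p under 0.05, smallest adjusted p 0.354). The member differences ran from -0.30 for Psme4 to 0.35 for Psmb10, whose 95% interval was 0.05 to 0.65. In leukemia 0.16% of all genes differed, and 0 of 48 members did (3 at an unadjusted p under 0.05, smallest adjusted p 0.601), with differences from -0.28 for Psmd10 to 0.35 for Psmb8 (95% interval -0.01 to 0.70). The stage comparisons and the genotype comparisons share their samples.

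Proteasome genes outside the Psm families were followed on lists that were chosen with results of these data known. Of 8 tested components and assembly factors 4 rose and 2 fell in Pax5+/- mice and 3 rose in WT mice. For this and the following lists the shares over all genes are the 27.8% higher and 35.1% lower in Pax5+/- mice and the 18.7% higher and 20.4% lower in WT mice given above. The deubiquitinases of the 19S cap, Uchl5 and Usp14, rose by 0.96 ± 0.12 and 0.66 ± 0.09 in Pax5+/- mice (adjusted p = 4e-07 and 3.01e-06) and by 1.24 and 0.97 in WT mice. Txnl1, a thioredoxin bound to the 19S cap, rose by 0.40 and 0.62. Ecpas, an adaptor and scaffold protein of the proteasome, fell by 0.74 in Pax5+/- mice (adjusted p = 0.00131), and Akirin2, which carries proteasomes into the nucleus, fell by 0.37 (adjusted p = 0.0287). Pomp, the maturation factor of the core, did not pass (0.48 ± 0.31, adjusted p = 0.178). Adrm1 and Paaf1 were not analysed here.

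Among 7 tested regulators of proteasome genes, 1 rose and 3 fell in Pax5+/- mice and none passed in WT mice (smallest adjusted p there 0.144, for Nfyc), so the Pax5+/- counts lie near the shares over all genes. Nfe2l1, which drives proteasome genes when the proteasome is impaired, rose by 0.23 ± 0.09 in Pax5+/- mice (adjusted p = 0.0254). The CCAAT-binding subunits Nfya, Nfyb and Nfyc fell there (-0.25, -0.26 and -0.30). Of 7 tested genes that deliver ubiquitinated proteins, 1 rose and 3 fell in Pax5+/- mice, and 1 rose and 2 fell in WT mice, also near those shares. The shuttle Ubqln4 rose by 0.86 and 0.83, its relative Ubqln2 fell (-0.78 and -0.49), and the autophagy receptor Sqstm1 fell (-0.68 and -0.52).

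The genes that take proteasome products to MHC class I were mixed. Of 11 tested, 6 rose and 2 fell in Pax5+/- mice, and 4 rose and 1 fell in WT mice. Tap1, the peptide transporter gene that starts beside Psmb9, ran from 9.29 to 9.68 in preleukemic and from 9.96 to 10.88 in leukemic Pax5+/- arrays (1.03 ± 0.15, adjusted p = 3.52e-06), and rose by 0.61 ± 0.23 in WT mice (adjusted p = 0.0386). Pdia3, a folding enzyme of the peptide-loading complex, rose by 0.83 and 1.01, the trimming peptidase Erap1 by 0.72 and 0.54, and the chaperone Canx by 0.68 and 0.64. B2m, the light chain of the class I molecule, fell by 0.19 and the aminopeptidase Npepps fell by 0.21 in Pax5+/- mice (adjusted p = 0.00339 and 0.0142), and in WT mice Tapbpl fell by 0.38 (adjusted p = 0.0295).

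Of 9 tested transcription factors of the interferon response, 1 rose and 6 fell in Pax5+/- mice and 5 fell in WT mice. Irf4, which also acts in B-cell maturation, differed by -2.92 and -2.95, Irf8 by -0.89 and -1.49 and Irf2 by -0.76 and -0.69 in Pax5+/- and WT mice, all past the threshold. Irf7 rose by 1.22 ± 0.38 in Pax5+/- mice (adjusted p = 0.00771). In WT mice Irf5 fell by 0.95 (adjusted p = 0.00293). Of 16 interferon-stimulated genes 7 rose in Pax5+/- mice, where 27.8% of all genes did, and 2 in WT mice, where 18.7% did, and none fell. The WT mean of these genes was highest on leukemic array 2 (8.91, the others 6.76 to 7.22).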

How the data were processed

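Messenger RNA was measured on 24 one-colour mouse arrays, 1 per sample. The authors deposited log2 values for 35556 probe sets, made with RMA and oligo, per the submitters' processing notes, which name no version. RMA normalizes quantiles and compresses low signals. The medians of the deposited arrays nevertheless differed by stage. They ran from 6.104 to 6.219 on leukemic and from 6.226 to 6.296 on preleukemic arrays, without overlap. The number of arrays limits the precision.

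A gene was tested when it reached the 30th percentile of the array on at least 3 arrays. Means of the 4 groups were fitted with limma 3.58.1 in R 4.3.3 (20 residual and 2.29 prior degrees of freedom; 5 two-sided contrasts; Benjamini-Hochberg over 15647 genes). Within-array pairs were compared by exact permutation and relations by 1e+05 permutations. The fit was tested on simulated data. Sequences and gene order came from RefSeq tables of GRCm38.p6.

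The members and lists were chosen with earlier results of these data known. Named were the catalytic subunits and their replacements, the caps, Psmd4, Psmd14 and Psmf1, the called members with the largest changes, those with the smallest differences, and leading genes of each pathway list; others named, such as Psma1, Psmd3 and Psmd10, were chosen after their values were seen. Replicate numbers did not pair samples. Alternatives varied the filter, probe set, normalization, covariates and arrays.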

Additional observations from a re-analysis of the deposited data

Results flagged for a closer look

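In 144 checks for a lone array within a group of 4 to 10, 6 values stood apart, where chance gives about 7.2. Of these, 4 were on leukemic Pax5+/- array 7, which read low for Psma6 (11.12, the others from 11.55 to 11.83), Psmb2 (11.09, others from 11.42 to 11.69), Psmc4 (9.50, others from 9.69 to 9.91) and Psmd2 (10.24, others from 10.55 to 10.90). That array also had the lowest cell-cycle mean (9.34), the lowest granulocyte mean (6.11) and the highest platelet mean (10.65) of its group. Its value for Psmb8 (10.46) was among the highest of the group. Preleukemic Pax5+/- array 5 read low for Psmc3 (8.53, others from 8.79 to 8.99), and array 2 of that group for Psmd11 (8.89, others from 9.03 to 9.11).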

How the results depend on the processing

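Of the 35 members called in Pax5+/- and 30 in WT mice, 17 and 18 kept their call in all settings tried. In Pax5+/- mice the number of members that fell, 6, became 2 with arrays centred on all probe sets, 3 at an adjusted p under 0.01 and 12 with centring on the tested genes, which also left 15 that rose. In WT mice the number that rose, 29, became 18 at an adjusted p under 0.01 and 18 with centring on the tested genes, where 2 fell. Over the 15647 genes tested, that centring gave 2827 higher and 8930 lower in Pax5+/- mice, and 2214 and 5741 in WT mice. That centring, chosen after seeing the data, shifted all genes by -0.20 in Pax5+/- mice and so turned 9 small positive member differences negative there. Of these, the ones called before or after were Psmb3 (-0.08), Psmb5 (-0.05) and Psmd4 (-0.18). Psmb10 minus Psmb7 changed by -0.38 with medians and no longer passed. Leaving out 1 array gave 26 to 31 rising and 5 to 6 falling members in Pax5+/- mice, and 19 to 30 rising and 1 to 2 falling in WT mice, where Psmb11 joined Psme4 without preleukemic WT array 1. The causes were not tested. With the replicate number as a replicate block 24 rose and 5 fell in Pax5+/- and 26 rose and 1 fell in WT mice. Deviations of same-numbered arrays correlated between -0.36 and 0.14, so the numbers do not pair samples. With 3 preleukemic WT arrays the WT comparison is the less precise, with a median SE of 0.13 over members against 0.09.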
